A study of Saccharomyces cerevisiae with 12 samples.

Results

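The effect of deleting SWI1 in budding yeast (Saccharomyces cerevisiae) was compared between minimal medium and the rich medium YPD. The arrays were chosen by title, 3 titled swi1 in minimal medium and 3 titled swi1 in rich medium, which made 6 of the 12 arrays. Each was a two-channel spotted array with total RNA of the swi1 deletion strain YPS1 in channel 1 and total RNA of the wild-type strain FY2 in channel 2. The medium is given per array, and the labels name no separate medium for the wild type. The other 6 arrays set the snf2 deletion strain FY31 against FY2 in the same media. Those of experiments 2 and 3 share in the estimate of spread behind every standard error and p-value in the main fit. Otherwise the snf2 arrays enter below only where the comparison needs them. Experiments 2 and 3 of every group lay on 1 platform and were tested, which left 4 swi1 arrays, 2 for each medium. The experiment 1 arrays served as a check of sign, and there minimal and rich medium lay on different platforms, so that platform and medium cannot be told apart. The labels are silent on separate cultures, so each p-value reflects array-to-array spread, which may be technical.

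Snf/Swi is a chromatin-remodelling complex that uses ATP to slide or evict nucleosomes, and transcription activators recruit it to the promoters they control. SWI1 encodes a subunit that contacts such activators, and SNF2 encodes the ATPase. In yeast the complex is best known for genes that are switched by nutrients, such as genes of phosphate and sugar use. Minimal medium makes cells synthesise their own amino acids and live on a single nitrogen source, whereas YPD supplies peptides, amino acids and vitamins.

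All values are log2 ratios of swi1 mutant over wild type, centred on the median gene of their array. The medium difference is the mean ratio in minimal medium minus the mean ratio in rich medium. A negative one means that the gene stood lower in the mutant, relative to the wild type, in minimal than in rich medium. Because both channels can move with the medium, the ratios do not say which strain changed between media, and they give shares of RNA, not RNA per cell. No dyes are named, which leaves the direction of the ratio likely only. With the opposite reading every sign below turns.

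The 4 tested arrays measured between 7400 and 8055 of 8832 probes. Across genes, the minimal arrays of experiments 2 and 3 correlated at r = 0.83 and the rich arrays at r = 0.79, against 0.48 to 0.59 between the media. Between 6.39% and 9.71% of the values on these arrays equalled ratios of whole numbers up to 10, as very dim spots can give. Brighter spots can match such a ratio too, and spot intensities were not available, so the share of dim spots is unknown. The SWI1 readings were mixed, and the libraries are therefore called arrays labelled swi1. One SWI1 probe read -0.83 and -0.46 in minimal medium (experiments 2 and 3) and -1.33 on the rich array of experiment 2. A second SWI1 probe read 1.25 and 0.57 on the rich arrays of experiments 2 and 3 and gave no value in minimal medium. On experiment 1, SWI1 read 1.35 in minimal medium and -0.49 in rich medium. The extent of the deletion and the stretch each probe covers are not given, so these probes may check nothing. Among haploid mating-type genes, the alpha-cell genes SAG1, MF(ALPHA)1, MF(ALPHA)2 and STE3 were below 0 on all 4 tested arrays (SAG1 at -4.01 and -4.39 in minimal medium and -3.73 and -3.48 in rich medium). Of the 5 a-cell genes tested, MFA1, STE2, STE6 and AGA2 read between -0.54 and 0.46, and MFA2 read -0.01 and -0.09 in minimal medium and -2.41 and -0.41 in rich medium. The part of mating type in the results was not tested.

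Of 4890 genes measured on all 4 arrays, limma called 306 as different between media at an adjusted p under 0.05 (6.26%). Of these, 101 were higher in minimal medium (2.07% of genes tested) and 205 were lower (4.19%). At a difference of at least 2-fold there were 34 higher and 113 lower genes. The median difference over all genes was 0.046 and the median standard error 0.16. The count rested partly on single arrays. Without the minimal array of experiment 2 it was 202, without that of experiment 3 it was 113, and without the rich array of experiment 3 it was 165. Leaving out the rich array of experiment 2 gave 311 calls, 161 of them higher. In a fit of all 12 arrays with the platform as a random block, 91 genes were called, and 86 of them were among the 306. A fit of the 4 swi1 arrays alone, without the spread of the snf2 arrays, called 179 genes, 40 of them higher. Of 837 probes without a gene name, 6 were called (0.717%), all of them lower.

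**Figure D1:**
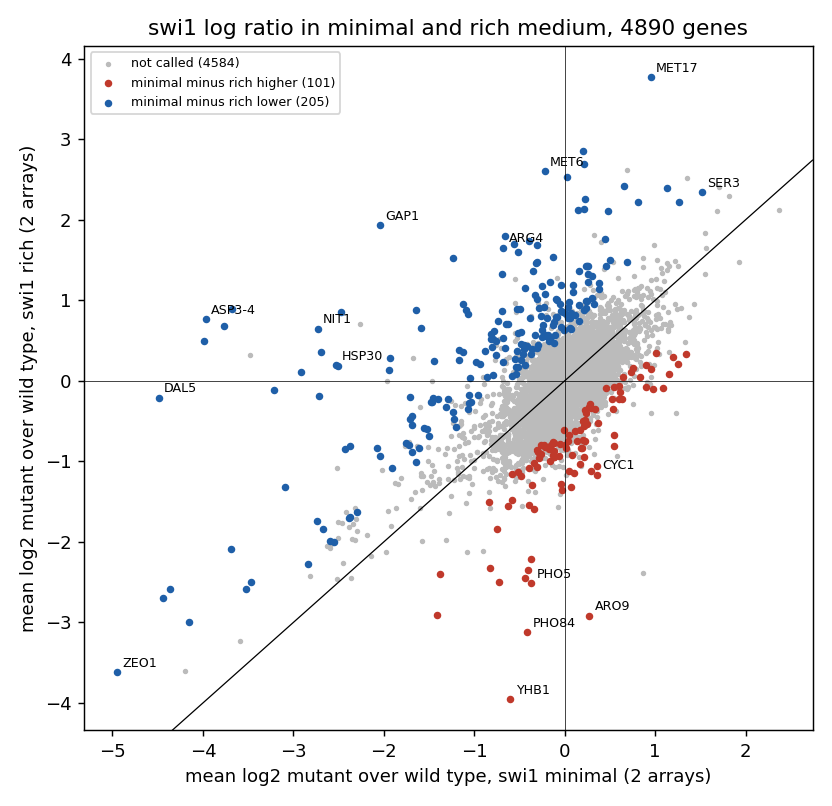
Each point is 1 of the 4890 genes, with its mean centred log2 ratio of mutant over wild type on the 2 swi1 minimal arrays along the x axis and on the 2 swi1 rich arrays along the y axis; the diagonal marks equal ratios. The 205 genes called lower in minimal medium (blue) lie above the diagonal, among them GAP1 and the ASP3 genes with ratios of opposite sign, and the 101 called higher (red) lie below it, led by YHB1, ARO9 and PHO84.

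For part of these genes the mutant effect had opposite signs in minimal and rich medium. The mean ratios had opposite signs in 156 of the 306, but only 51 were called against 0 in both media with opposite signs. For the rest of the 156, the mean of either minimal or rich medium was not called as different from 0. The share of opposite signs over all tested genes is not given here. Tested against 0 in each medium, where limma called 1526 of 5354 genes in minimal medium (28.5%) and 2051 of 5026 in rich medium (40.8%), the 205 lower genes fell into 5 classes. Of these, 74 were called higher in the mutant in rich medium alone, 37 were called lower in minimal medium alone, and 44 were called lower in minimal medium and higher in rich medium. A further 38 were called lower in both media and 12 higher in both. Of the 101 genes with a positive difference, 55 were called lower in the mutant in rich medium alone and 20 higher in minimal medium alone. The remainder comprised 18 called lower in both media, 7 called higher in minimal and lower in rich medium, and 1 called higher in both.

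Genes for using poor nitrogen sources had the largest negative differences. This list holds nitrogen catabolite repressed genes, which yeast switches on when good nitrogen sources run short. Of 19 members tested, 10 were lower and 0 higher, with a median difference of -2.53 against 0.046 over all genes. The median member stood at -1.65 in minimal medium and 0.37 in rich medium. The general amino acid permease gene GAP1 read -2.09 and -2.00 on the minimal arrays and 1.95 and 1.90 on the rich arrays. The groups lay apart on opposite sides of 0, and the difference was -3.97 ± 0.13 (SE, adjusted p = 3.25e-05). DAL5, which encodes the allantoate permease, read -4.65 and -4.33 in minimal medium, against 0.53 and -0.95 in rich medium. Here the 2 rich arrays disagreed in sign, but both lay above both minimal arrays (difference -4.28 ± 0.44, adjusted p = 0.00355). DAL7, for a malate synthase of allantoin breakdown, read -2.73 and -2.66 in minimal medium and 0.39 and 0.33 in rich medium. It differed by -3.05 ± 0.15 with an adjusted p of 0.000224.

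The vacuolar carboxypeptidase gene CPS1 was below 0 in minimal medium at -3.08 and -2.75, against -0.02 and 0.23 in rich medium. Its difference was -3.02 ± 0.19 (adjusted p = 0.000473). DUR3, for urea and polyamine uptake, differed by -2.69 ± 0.17 and PUT4, the proline permease gene, by -2.53 ± 0.19. The glutamine synthetase gene GLN1 was near -0.42 and -0.37 in minimal medium but 1.77 and 1.69 in rich medium, so that the larger departure from 0 was in YPD (difference -2.12 ± 0.19). PUT1, for proline oxidase, differed by -3.09 ± 0.43 (adjusted p = 0.0116), a call lost without the minimal array of experiment 2 (adjusted p = 0.0685) or experiment 3 (adjusted p = 0.0823). The repressor gene DAL80 (-3.81 ± 0.85, adjusted p = 0.0528) and the ammonium permease gene MEP2 (-2.97 ± 0.82, adjusted p = 0.0786) did not pass the test. Leaving out each swi1 array in turn gave 8 to 11 lower members and 0 higher ones.

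The 4 ASP3 genes encode the cell-wall asparaginase that releases ammonium outside the cell. They are near-identical copies in a tandem array, so their spots cannot be told apart. ASP3-4 (YLR160C) read -3.97 on both minimal arrays and 0.85 and 0.68 on the rich arrays, the most negative difference of all named genes (-4.73 ± 0.19, adjusted p = 8.87e-05). The other copies had differences between -4.56 and -4.46. NIT1 and YIL165C, neighbouring frames of a nitrilase gene that is split in this strain background, differed by -3.38 ± 0.18 and -3.34 ± 0.16. NIT1 read -2.84 and -2.62 in minimal medium, against 0.42 and 0.87 in rich medium.

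**Figure D2:**
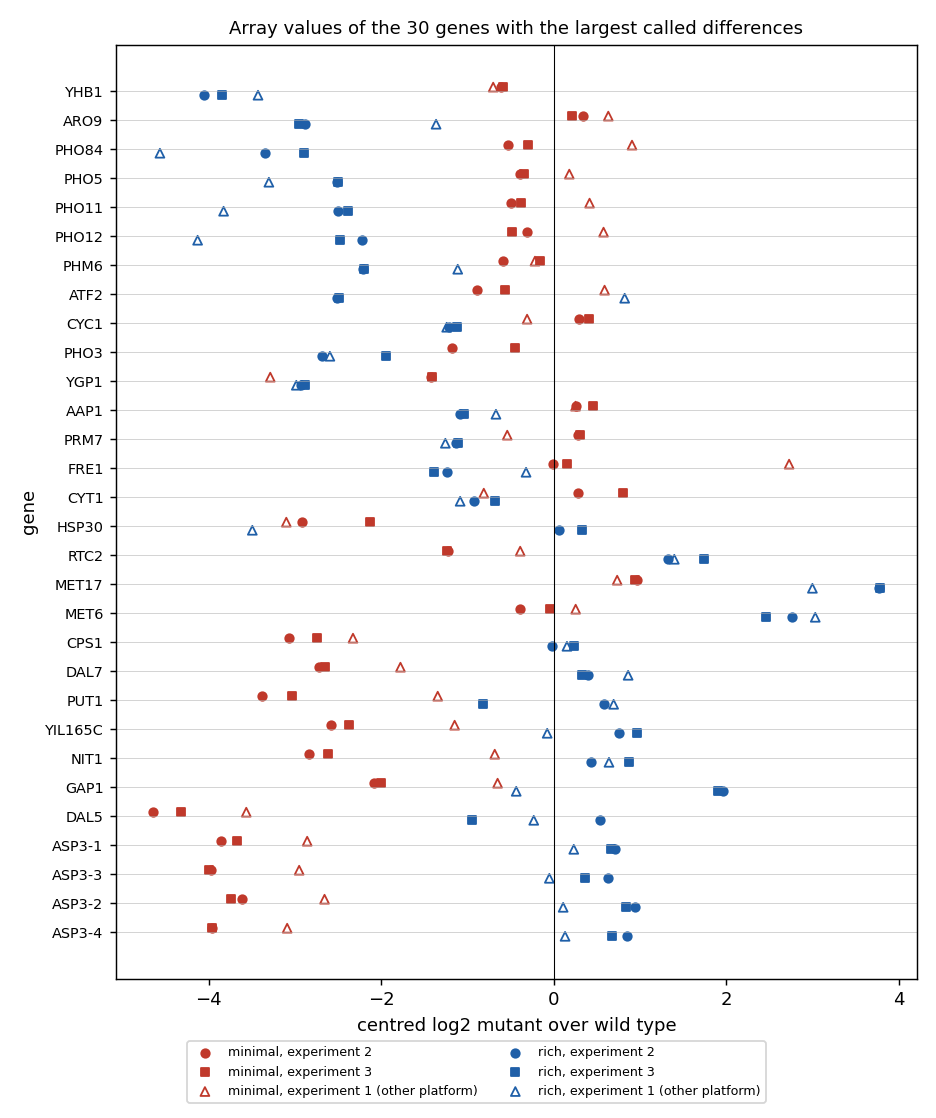
Centred log2 ratios of mutant over wild type (x axis) for the 30 genes with the highest and lowest called differences, one row each; red is swi1 minimal and blue swi1 rich, circles experiment 2, squares experiment 3 and open triangles experiment 1 on the other platforms. In every row the filled red and blue symbols do not overlap; the triangles follow the same order for most genes, but not for HSP30, ATF2 and YGP1.

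Permease genes moved both ways. In the list of 14 amino acid permease genes tested, 2 were lower and 5 higher, and the median difference was 0.61. DIP5, for the permease of acidic amino acids, read -1.52 and -1.66 in minimal medium and 0.65 on both rich arrays (difference -2.24 ± 0.16, adjusted p = 0.000361). The lysine permease gene LYP1 read 1.11 and 1.40 in minimal medium, against 0.17 and 0.27 in rich medium. Its difference of 1.04 ± 0.16 had an adjusted p of 0.0113. That call was lost without the minimal array of experiment 3 (adjusted p = 0.0737), and the list had 2 higher members without the minimal array of experiment 2 and 1 without any other swi1 array.

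Genes of sulfate uptake and assimilation, which supply sulfide for methionine and cysteine, had the most negative median of the biosynthetic lists. Of 8 tested members, 6 were lower and 0 higher, with a median difference of -1.90. Most members lay near 0 in minimal medium (median 0.083) and above 0 in rich medium (median 1.45). MET3, for ATP sulfurylase, the first enzyme of assimilation, read 0.08 and 0.33 in minimal medium and 2.87 and 2.84 in rich medium. The arrays of the 2 media lay far apart (difference -2.65 ± 0.19, adjusted p = 0.000342). SUL2 and SUL1 both encode sulfate permeases, but they differed in where the departure from 0 lay. SUL2 read -0.11 and 0.17 in minimal medium, against 2.38 and 2.67 in rich medium. SUL1 read -2.17 and -1.72 in minimal medium, against -0.03 and 0.29 in rich medium. Their differences were -2.50 ± 0.16 for SUL2 and -2.07 ± 0.25 for SUL1. The sulfite reductase gene MET5 differed by -2.03 ± 0.25, a call lost without the minimal array of experiment 3 (adjusted p = 0.0513).

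In methionine synthesis and the S-adenosylmethionine cycle, 5 of 11 tested genes were lower and 0 higher, and the median difference was -0.14. Without either minimal array 3 were lower, and without the rich array of experiment 3, 3 were lower and 1 higher. MET17 encodes the enzyme that joins sulfide to O-acetylhomoserine. It was above 0 in both media, at 0.96 and 0.94 in minimal medium and 3.76 and 3.78 in rich medium. The difference was -2.82 ± 0.12 (adjusted p = 3.25e-05); the gene overlaps YLR302C, and the source of the signal cannot be split between them. MET6, for methionine synthase, read -0.40 and -0.05 in minimal medium against 2.76 and 2.46 in rich medium, a difference of -2.83 ± 0.20 (adjusted p = 0.000379). MET13, a methylenetetrahydrofolate reductase gene, differed by -1.77 ± 0.14. No difference was called for MET2, the homoserine acetyltransferase gene (0.62 ± 0.29), or SAH1, for adenosylhomocysteine breakdown (0.17 ± 0.14). Of the 15 tested genes of transsulfuration, methionine uptake and the regulators of the pathway, 2 were lower and 1 higher. The higher one, CYS4, for cystathionine beta-synthase (0.84 ± 0.17), lost its call without either minimal array (adjusted p = 0.0765 and 0.174) or the rich array of experiment 2 (0.1). Without the minimal array of experiment 2, 1 was lower.

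Arginine synthesis genes were likewise lower. Of 8 tested genes, 6 were lower and 0 higher, with a median of -1.57, and 5 were lower whichever array was left out. ARG1, for argininosuccinate synthetase, read -1.09 and -1.16 in minimal medium and 1.09 and 0.81 in rich medium (difference -2.08 ± 0.15, adjusted p = 0.000342). ARG4, for argininosuccinate lyase, read -0.93 and -0.43 in minimal medium and 1.73 and 1.57 in rich medium (difference -2.33 ± 0.21, adjusted p = 0.00103). In both genes the minimal arrays lay below 0 and the rich arrays above it. ARG3 and ARG7, for ornithine transcarbamylase and ornithine acetyltransferase, differed by -1.97 ± 0.15 and -1.99 ± 0.13. ARG2 and ARG8, which act earlier on the path to ornithine, did not pass (-0.38 ± 0.14 and -0.39 ± 0.16).

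Among 10 tested genes of branched-chain amino acid synthesis, 5 were lower and 1 higher (median -0.80). LEU2, for isopropylmalate dehydrogenase, read 0.30 and 0.13 in minimal medium, against 2.51 and 2.87 in rich medium. The difference was -2.47 ± 0.25 (adjusted p = 0.002). LEU2 is also a common strain marker, and the labels do not give the marker genotypes of FY2 and YPS1. LEU1, for the preceding isomerase, read -0.22 and -0.42 in minimal medium and 1.35 and 1.59 in rich medium (difference -1.79 ± 0.18, adjusted p = 0.00214), and LEU4, for the first committed step, differed by -1.14 ± 0.14. Without the minimal array of experiment 2 or the rich array of experiment 3, 3 members were lower, and 5 were lower without either other array.

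Lysine and aromatic amino acid genes split within their pathways. Of 9 lysine genes tested, 3 were lower and 2 higher. The 2 homocitrate synthase genes that open the pathway were the higher ones. LYS20 read 1.18 and 0.99 in minimal medium and -0.16 and -0.03 in rich medium (difference 1.18 ± 0.14, adjusted p = 0.00355). LYS21 differed by 1.08 ± 0.15, a call lost without the minimal array of experiment 3 (adjusted p = 0.0548). The late genes LYS9 and LYS1 had differences of -1.21 ± 0.19 and -1.09 ± 0.18. LYS9 was lost without the minimal array of experiment 2 (adjusted p = 0.054) or the rich array of experiment 3 (adjusted p = 0.0591), and LYS1 without either minimal array or the rich array of experiment 2 (adjusted p = 0.0799, 0.0566 and 0.0696).

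Of 12 aromatic genes, 3 were lower and 1 higher, with 1 lower without either minimal array and 2 without either rich array. ARO9, an aromatic aminotransferase gene of amino acid breakdown, had the second-largest positive difference of the named genes. It read 0.33 and 0.21 in minimal medium, against -2.88 and -2.95 in rich medium. The difference was 3.19 ± 0.29 (adjusted p = 0.00111). ARO1, which encodes the multi-step enzyme of the chorismate pathway, went the other way with -1.06 ± 0.14. In serine, glycine and one-carbon metabolism 5 of 13 genes were lower and 1 higher, but 2 were lower without either array of experiment 3 and 1 without either array of experiment 2. The higher member was CHA1, for serine and threonine breakdown, with -0.03 and -0.04 in minimal medium and -1.21 and -1.50 in rich medium (difference 1.32 ± 0.16, adjusted p = 0.00355). Histidine (1 of 5 lower) and purine synthesis (1 of 9 lower) had 1 call each, both lost without either minimal array or the rich array of experiment 3, and the purine call also without the rich array of experiment 2.

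**Figure D3:**
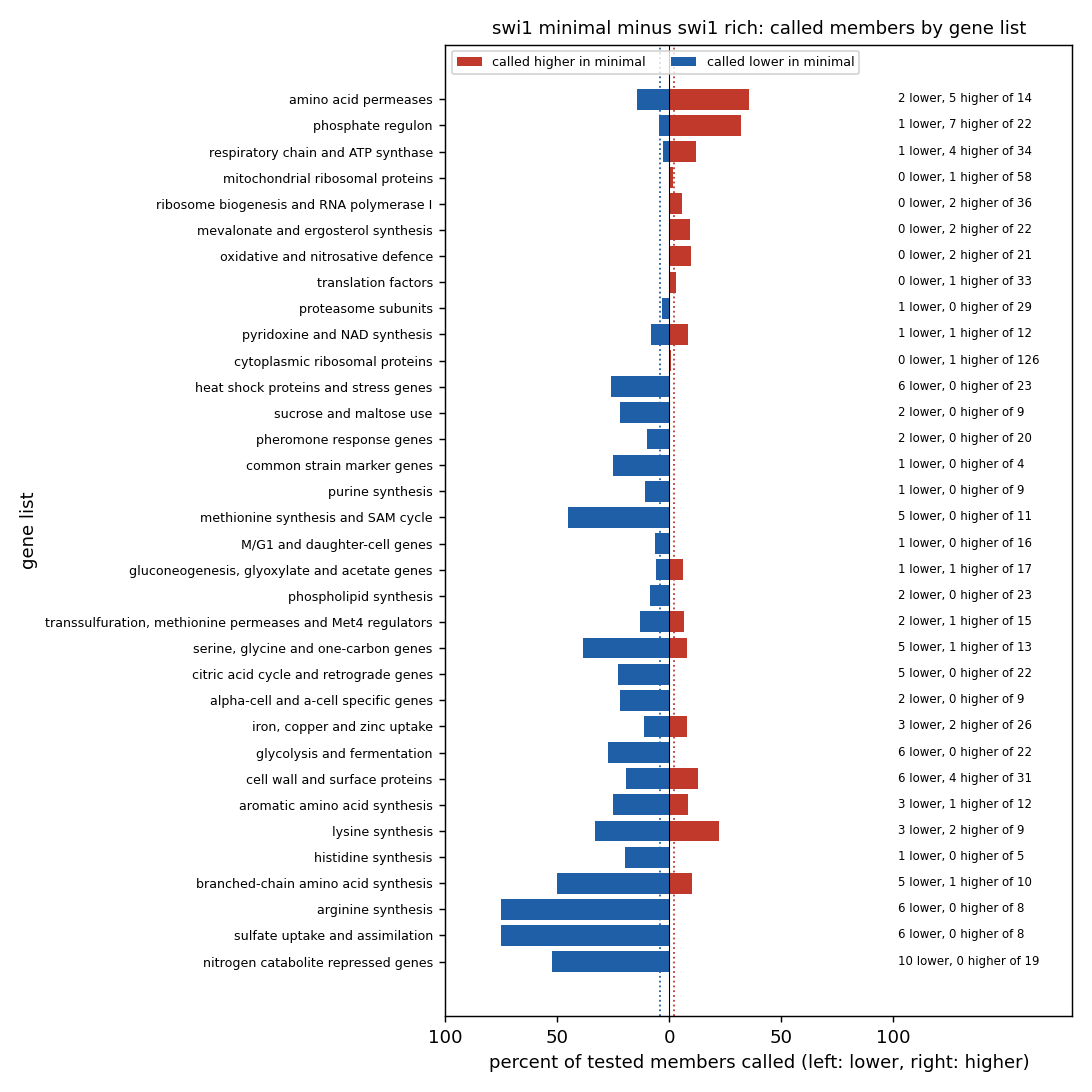
Percent of the tested members of each gene list that were called lower (blue, to the left) or higher (red, to the right) in swi1 minimal minus swi1 rich, with the counts at the right edge and dotted lines at the shares over all 4890 genes (4.19% lower, 2.07% higher). Lists with no called member are not drawn. Sulfate assimilation, arginine synthesis and nitrogen catabolite repressed genes reach furthest to the left, and permeases and the phosphate regulon furthest to the right.

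Genes of the phosphate regulon, which the activator Pho4 switches on when phosphate is short, had the most members called higher of the 41 lists. Of 22 tested members of this list, 7 were higher and 1 lower, with a median difference of 0.43 (0.61 for amino acid permeases). Whether Pho4 controls each member, PHO3 among them, was not tested. PHO84, for the high-affinity phosphate transporter (it overlaps the noncoding gene YNCM0001W), read -0.53 and -0.30 in minimal medium, against -3.35 and -2.90 in rich medium. All 4 arrays read below 0, but only the rich-medium effect passed the test against 0 (adjusted p = 0.0503 in minimal medium). The difference was 2.71 ± 0.18 (adjusted p = 0.000297). The secreted acid phosphatase gene PHO5 read -0.39 and -0.35 in minimal medium and -2.52 and -2.50 in rich medium (difference 2.14 ± 0.16, adjusted p = 0.000481). PHO11 and PHO12, acid phosphatase genes of nearly identical sequence whose spots can share signal, differed by 2.01 ± 0.15 and 1.95 ± 0.42. PHM6, a phosphate-responsive gene, differed by 1.83 ± 0.17.

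Not every member of the list moved this way. PHM8, a nucleotidase gene of the regulon, was the lower one, with -2.41 and -2.35 in minimal medium and -0.85 and -0.77 in rich medium (difference -1.57 ± 0.13, adjusted p = 0.00166). The regulator gene PHO81 stood at 0.83 ± 0.18 and SPL2 at 1.04 ± 0.33, neither called. PHO12 lost its call without any 1 of the 4 arrays (adjusted p = 0.0724 to 0.174), and PHO3 (1.50 ± 0.30) lost it without the minimal array of experiment 3 (adjusted p = 0.167) or the rich array of experiment 2 (adjusted p = 0.0821). Between 4 and 8 members were higher when 1 array was left out, with 4 reached without the minimal array of experiment 3 or the rich array of experiment 2.

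YHB1, for the flavohaemoglobin that detoxifies nitric oxide, had the highest difference among the named genes. It read -0.61 and -0.60 in minimal medium, against -4.06 and -3.85 in rich medium. The 2 media did not overlap, and the difference was 3.35 ± 0.13 (adjusted p = 3.25e-05). GPX2, a peroxidase gene, was the other higher member of the 21 oxidative and nitrosative defence genes (1.03 ± 0.17, adjusted p = 0.0179). Its call was lost without the array of experiment 3 in either medium (adjusted p = 0.115 without the minimal array, 0.0824 without the rich one). None of these 21 genes was called lower.

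Respiratory genes and other carbon genes differed in direction. In the respiratory chain and ATP synthase 4 of 34 tested genes were higher and 1 lower. CYC1, for the main cytochrome c, read 0.30 and 0.41 in minimal medium and -1.21 and -1.12 in rich medium (difference 1.52 ± 0.15, adjusted p = 0.00166). NDE1, an external NADH dehydrogenase gene, differed by 1.17 ± 0.15 but lost its call without the minimal array of experiment 3 (adjusted p = 0.0501). CYT1, for cytochrome c1, differed by 1.35 ± 0.24. It lost its call without the minimal array of experiment 3 (adjusted p = 0.119) and without the rich array of experiment 2 (0.0623) or 3 (0.0526). The list had 1 higher member without the minimal array of experiment 3 and 3 to 5 without the others.

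Citric acid cycle and retrograde genes included 5 lower and 0 higher members of 22 (3 lower without either minimal array). IDP1, for mitochondrial isocitrate dehydrogenase, read -0.81 and -0.83 in minimal medium and 0.46 and 0.71 in rich medium (difference -1.40 ± 0.14, adjusted p = 0.00166). No IDP1 spot was measured on all 4 arrays, so this averages different spots, whose own differences were -0.80 and -1.67. IDH2, a subunit gene of the NAD-dependent enzyme, differed by -1.29 ± 0.13. Of 22 glycolysis and fermentation genes 6 were lower and 0 higher, with 1 without either minimal array, 4 without the rich array of experiment 2 and 2 without that of experiment 3. GLK1, for glucokinase, had the largest of these differences, at -1.63 ± 0.23 (adjusted p = 0.00927). The gene overlaps YCL042W. Its 2 spots had differences of -2.08 and -1.18, and read -0.60 and 0.84 on the minimal array of experiment 2. On experiment 1 the GLK1 difference had the opposite sign (0.65). MAL32, a maltase gene, read 0.62 and 0.27 in minimal medium against 1.69 and 1.83 in rich medium. SUC2, the invertase gene, read -0.21 and -0.17 in minimal medium against 0.74 and 0.82 in rich medium. MAL32 differed by -1.31 ± 0.17, an average over different spots, whose own differences were -0.79 and -1.65. The spot at -0.79 had no value on the rich array of experiment 3, and that at -1.65 read 0.89 and -0.43 on the minimal arrays. The SUC2 difference of -0.97 ± 0.14 (adjusted p = 0.0102) lost its call without the array of experiment 3 in minimal medium (adjusted p = 0.0573) or in rich medium (adjusted p = 0.0539). None of 20 hexose transporter and glucose sensor genes was called.

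Among 23 heat shock and stress genes 6 were lower and 0 higher. HSP30, for a stress protein of the plasma membrane, read -2.92 and -2.13 in minimal medium and 0.06 and 0.33 in rich medium (difference -2.72 ± 0.25, adjusted p = 0.00114). HSP42, a small heat shock protein gene, read -0.60 and -0.72 in minimal medium and 1.57 and 2.01 in rich medium (difference -2.45 ± 0.18). HSP12 stood at -1.75 ± 0.32 and was not called without the rich array of experiment 2 (adjusted p = 0.0639) or 3 (adjusted p = 0.115). The list had 3 lower members without either rich array, 4 without the minimal array of experiment 2 and 5 without that of experiment 3.

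Cell wall genes divided into 6 lower and 4 higher of 31, and most named members were below 0 in both media. ZEO1, an abundant stress-linked surface protein gene, read -5.06 and -4.83 in minimal medium, against -3.67 and -3.56 in rich medium (difference -1.33 ± 0.19, adjusted p = 0.00912; 0.0528 without the minimal array of experiment 2). TIP1, for a mannoprotein, differed by -1.60 ± 0.16. YGP1, for a secreted glycoprotein, had the opposite order, with -1.42 and -1.41 in minimal medium and -2.94 and -2.88 in rich medium (difference 1.49 ± 0.14, adjusted p = 0.00244). In minimal medium, leaving out experiment 2 gave 1 lower and 2 higher members and leaving out experiment 3 gave 3 lower and 1 higher. In rich medium, leaving out experiment 2 gave 5 lower and 3 higher and leaving out experiment 3 gave 2 lower and 2 higher.

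Growth genes had call shares at or below the 6.26% over all genes. Of 126 cytoplasmic ribosomal protein genes 1 was called (RPS7B, 0.68 ± 0.14), and their median ratio was -0.57 in minimal medium and -0.68 in rich medium. Mitochondrial ribosomal protein genes had 1 call of 58 and a median difference of 0.30. For ribosome biogenesis 2 of 36 were higher, for translation factors 1 of 33, and for tRNA synthetases 0 of 20. No ribosome biogenesis gene was called higher with any 1 of the 4 arrays left out. The next lists are short, and a count of 0 in them is near that background. No call fell among 10 histone genes, 12 Snf/Swi subunit genes, 14 trehalose and glycogen genes, 19 COS and telomeric helicase genes or 11 thiamine genes; without the rich array of experiment 2, 2 Snf/Swi genes were called higher. RPS7B was not called when any 1 of the 4 arrays was left out (adjusted p = 0.0587 to 0.158). Of 9 mating-type genes 2 were lower, of 20 pheromone response genes 2, of 29 proteasome genes 1, and of 16 genes of the M/G1 phase and of daughter cells 1. The proteasome and daughter-cell calls, RPN4 (-0.78 ± 0.16) and DSE2 (-0.82 ± 0.16), were lost without any 1 of the 4 arrays (adjusted p = 0.0772 to 0.18 for RPN4 and 0.0575 to 0.0945 for DSE2). None of the mating-type and pheromone genes was lower without the array of experiment 3 in either medium.

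Metal uptake and lipid genes were divided. Of 26 iron, copper and zinc uptake genes 3 were lower and 2 higher. FRE1, for the main ferric reductase, read -0.01 and 0.15 in minimal medium, against -1.24 and -1.40 in rich medium (difference 1.39 ± 0.18, adjusted p = 0.00879). FET3, for the multicopper oxidase of iron uptake, read -1.90 and -2.95 in minimal medium and -0.80 and -0.89 in rich medium, the opposite order (difference -1.58 ± 0.35, adjusted p = 0.0424). Both calls were lost without the minimal array of experiment 3, with adjusted p = 0.0737 for FRE1 and 0.158 for FET3, and that of FET3 also without either rich array (0.102 and 0.122). The counts of the list fell to 0 in both directions without the minimal array of experiment 3. Of 23 phospholipid genes 2 were lower and of 22 ergosterol genes 2 were higher, and neither count exceeded 0 in its direction without any 1 of the 4 arrays. Further, of 12 pyridoxine and NAD genes 1 was lower and 1 higher, and of 17 gluconeogenesis and acetate genes 1 was lower and 1 higher. The higher members, BNA4 and MDH2, lost their calls without any 1 of the 4 arrays (adjusted p = 0.061 to 0.12 for BNA4 and 0.0534 to 0.182 for MDH2). BNA3, the lower NAD gene, lost its call without either minimal array (0.0573 and 0.13) or the rich array of experiment 2 (0.0594).

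The experiment 1 arrays gave the same sign for 235 of the 283 called genes measured there (83.0%), against 2613 of 4479 of all tested genes (58.3%). Of the genes called lower 166 of 190 had the same sign, and of those called higher 69 of 93. At a difference of 2-fold or more the shares were 100 of 108 lower and 27 of 32 higher genes. List medians on experiment 1 were -2.04 for nitrogen catabolite repressed genes, -1.54 for sulfate assimilation, -0.65 for arginine synthesis and 0.90 for the phosphate regulon. PHO84 stood at 0.91 in minimal medium and -4.57 in rich medium there.

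Some of the largest differences were not seen on experiment 1. GAP1 read -0.65 in minimal medium and -0.44 in rich medium, a difference of only -0.22. HSP30 was far below 0 in both media (-3.10 in minimal medium, -3.50 in rich medium). HSP42 read -0.48 in minimal medium and -1.39 in rich medium, and YGP1 -3.29 in minimal medium and -2.99 in rich medium, so that the order of the media turned for all 3. For the respiratory list the experiment 1 median was -0.33, opposite to the 0.30 of experiments 2 and 3, and NDE1 stood at -2.52 in minimal medium and -1.06 in rich medium. Cytoplasmic ribosomal protein genes also changed the sign of their median, to -0.15.

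**Figure D4:**
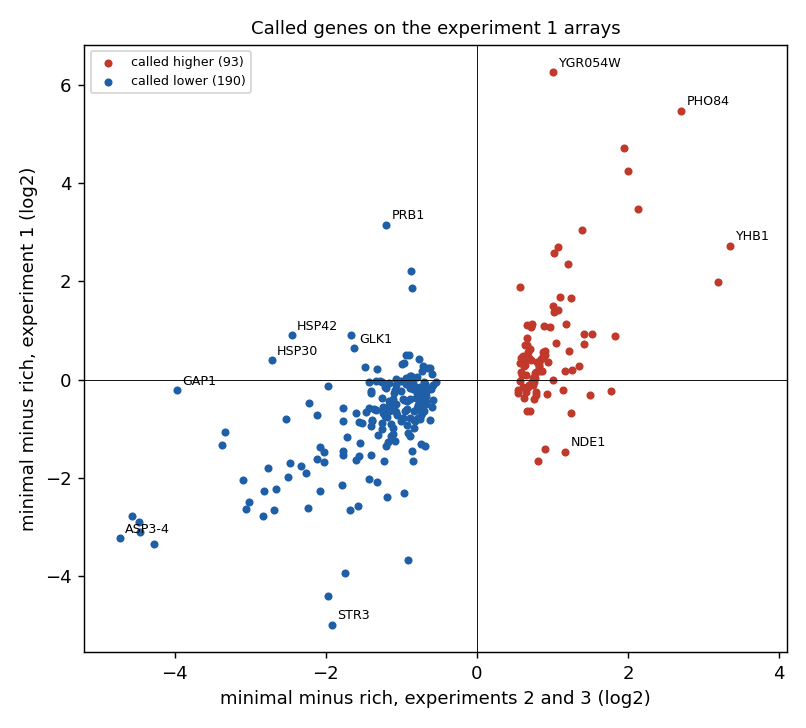
The medium difference (minimal minus rich, log2) of each called gene on experiments 2 and 3 (x axis) against the same difference on the experiment 1 arrays (y axis), for the 93 genes called higher (red) and the 190 called lower (blue) that were measured there. Most points lie in the lower left and upper right quadrants; GAP1 lies near 0, and HSP30, HSP42, GLK1, PRB1 and NDE1 lie in the other quadrants.

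The snf2 arrays allowed a test of whether the medium difference itself depended on which subunit was deleted. No gene of 3207 measured on all 8 arrays passed limma at an adjusted p under 0.05 (0.0%), while 123 had an unadjusted p under 0.05 (3.84%), and the lowest adjusted p was 0.169. The median standard error of this contrast was 0.24. The contrast could not include the ASP3 copies, GAP1, DAL5, DAL7, PUT1 or CPS1, which had no value on the snf2 rich array of experiment 3. Of the 19 nitrogen catabolite repressed genes tested between media in swi1, only 7 entered it. For the genes left out, whether the mutants differed was not tested. The largest gap to be described here, SER3 at 1.45 ± 0.24 (swi1 minus snf2), had an adjusted p of 0.268, so a count of 0 does not show that the mutants acted alike. The count was 44 without the snf2 rich array of experiment 2, 7 without the snf2 rich array of experiment 3, 3 without the snf2 minimal array of experiment 3, 1 without the swi1 minimal array of experiment 2 and 1 without the swi1 rich array of experiment 2. The snf2 rich array of experiment 3 lacked 40.0% of its probes. In snf2 itself, 178 of 3559 genes were called between media (5.0%), 46 higher (1.29%) and 132 lower (3.71%). Of the 210 genes called for swi1 with a snf2 difference, 205 had the same sign in snf2, against 2274 of all 3207 genes (70.9%). Among these 210, 107 were also called in snf2 with the same sign and 0 with the opposite sign.

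The 2 mutants had the following medium differences side by side. YHB1 differed by 3.35 ± 0.13 in swi1 and 3.25 ± 0.13 in snf2, PHO84 by 2.71 ± 0.18 in swi1 and 2.85 ± 0.18 in snf2, and MET17 by -2.82 ± 0.12 in swi1 and -3.10 ± 0.12 in snf2. ARG1 differed by -2.08 ± 0.15 in swi1 and -3.28 ± 0.15 in snf2. MAL32 had -1.31 ± 0.17 in swi1 and -0.36 ± 0.17 in snf2. SER3, a serine synthesis gene that overlaps the regulatory transcript SRG1, had -0.83 ± 0.17 in swi1 and -2.28 ± 0.17 in snf2. The gaps of ARG1 (1.20 ± 0.21) and MAL32 (-0.95 ± 0.25), like that of SER3, did not pass the test above (adjusted p = 0.318 for ARG1 and 0.837 for MAL32). SER3 in swi1 lost its own call without any 1 of the 4 swi1 arrays (adjusted p = 0.0531 to 0.111). Whether the wild-type RNA was shared between swi1 and snf2 arrays is not stated, so whether these values are independent of each other is unknown.

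**Figure D5:**
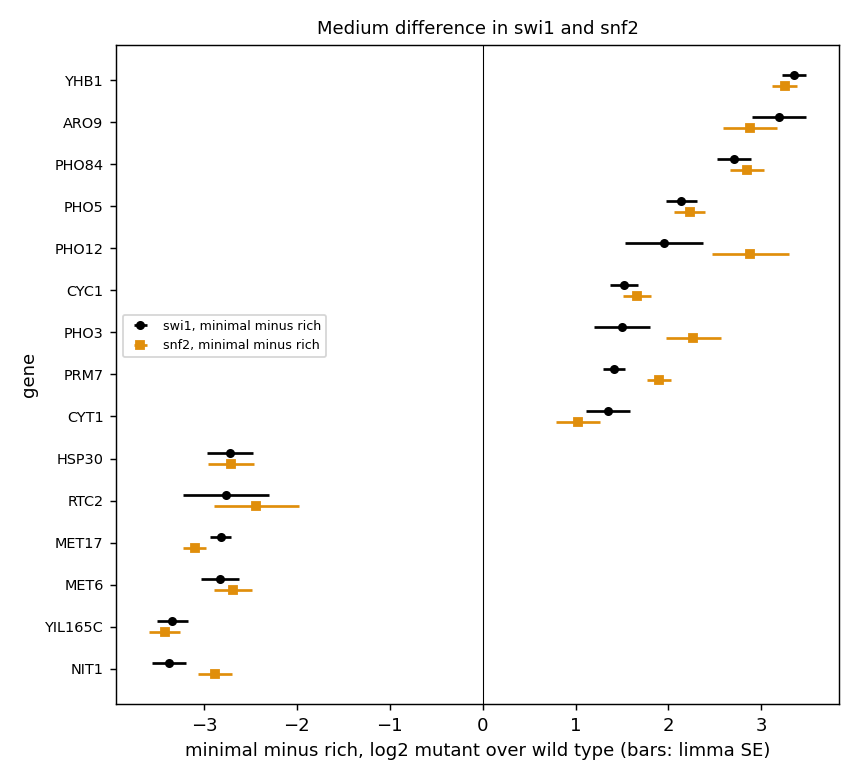
Medium differences (minimal minus rich, log2 mutant over wild type, with limma standard errors as bars) in swi1 (black circles) and snf2 (orange squares) for 15 of the 30 genes with the highest and lowest called swi1 differences, those measured on all 8 arrays. Every pair lies on the same side of 0, with YHB1 at 3.35 in swi1 and 3.25 in snf2 at the top.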

How the data were processed

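The members and gene lists (41 lists) were chosen with earlier results of these data known. The authors deposited 1 log2 ratio per probe and array, read from images with ScanAlyze (version 2.24 on 8 arrays, unknown on 4), per the labels and the submitters' notes; normalisation, numerator and centring are not given in the sources used here. Base 2 was read from the values, since 238 deposited values were exactly 1 where neighbouring values held 2.63 on average, and is taken over for experiment 1. The sign was turned to mutant over wild type because channel 2 held the wild type and ScanAlyze divides channel 2 by channel 1. Each array was centred on its median over named genes (6956 of 8832 probes, 5574 genes, matched through the platform's gene table) and spots of a gene were averaged, so 2 arrays can average different spots. limma 3.58.1 (R 4.3.3) was fitted to 8 arrays with 1 mean per group, two-sided, with Benjamini-Hochberg adjustment over all genes measured on the arrays compared. Errors are limma's moderated standard errors over 2 arrays per group. Named genes were the 15 highest and 15 lowest called, up to 4 called per list, and SWI1; other genes are named as list members. Same-numbered experiments were not taken as pairs, because their deviations from group means correlated at only -0.03 to 0.02. On simulated data with 50 genes changed at each size among 4890, this fit recovered 70% at a log2 difference of 1, 82% at 2 and 98% at 3, and 18% at 0.5. Signal over background is unknown, and the number of arrays limits the precision.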

Additional observations from a re-analysis of the deposited data

Results flagged for a closer look

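The swi1 effect differed between media for 306 genes by the limma contrast, which is a test of the difference itself. Of the 306 genes called among 4890 tested, 51 were called in opposite directions in minimal and in rich medium. Among the named genes, which were chosen mainly for large differences, 24 were. They include the 4 ASP3 copies, whose spots cannot be told apart. Of the 24 genes, 20 were lower in the mutant in minimal medium and higher in rich medium. For nitrogen and uptake genes their medium differences were -4.73 (ASP3-4), -4.56 (ASP3-2), -4.48 (ASP3-3), -4.46 (ASP3-1), -3.97 (GAP1), -3.38 (NIT1), -3.34 (YIL165C), -3.05 (DAL7), -2.76 (RTC2), -2.24 (DIP5) and -1.33 (MUP3). For synthesis genes they were -2.33 (ARG4), -2.08 (ARG1), -1.99 (ARG7), -1.97 (ARG3), -1.21 (ILV6) and -0.76 (ARO4). HSP42 stood at -2.45 and the citric acid cycle genes IDP1 and ACO1 at -1.40 each. The other 4 were higher in the mutant in minimal medium and lower in rich medium, with differences of 1.35 (CYT1), 1.41 (PRM7), 1.42 (AAP1) and 1.52 (CYC1). RTC2, a vacuolar cationic amino acid exporter gene, lost its call without either minimal array (adjusted p = 0.0728 and 0.118) or the rich array of experiment 3 (adjusted p = 0.0759). ACO1 lost its call without either minimal array (adjusted p = 0.0536 and 0.0531). ILV6 lost it without the minimal array of experiment 2 (0.0546) or the rich array of experiment 3 (0.0556). ARO4 lost it without either minimal array (0.0608 and 0.115) or the rich array of experiment 2 (0.0731). The losses of CYT1 are given above.

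Outside the named genes, 6 of 837 unnamed probes were called (0.717%), all lower, with differences between -2.20 and -1.23. Of these probes 146 had an unadjusted p under 0.05.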

How the results depend on the processing

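Of 106 named genes, 105 were called. Of these, 33 were called under every alternative that gave them a value (17 genes under 15 alternatives, 16 under 14) and 48 without each swi1 array in turn. MF(ALPHA)2 turned sign under quantile normalization (0.088, adjusted p = 0.807). Against 306 called genes, 91 were called (24 higher, 67 lower, 70 at 2-fold) with all 12 arrays and the platform as a random block, and 179 (40 higher) with the 4 swi1 arrays alone. Testing only genes on all 8 arrays gave 97 at 2-fold, with fewer genes tested. Leaving out 1 array gave 113 to 311 called, 18 to 161 higher, 95 to 150 lower and 111 to 238 at 2-fold, and 0 to 44 in the contrast with snf2. Centring left out, scaled arrays, quantile normalization, the first spot only and the robust prior gave 256 to 308 called. The share of higher calls was 33.0% in the main result and between 25.9% and 33.6% under these. With the replicate block 211 genes were called, 54 higher, and 144 at 2-fold; the pairing was not borne out, so the block was not used. Added after seeing the data, leaving out the small whole-number ratios gave 299. Averaging only spots measured on every array, also added then, gave 312 (93 higher). With common spots ARO1 stood at -1.21, ILV6 at -1.33, LYS20 at 0.95 and MAL32 at -1.66 (adjusted p = 0.0449), while IDP1 had no common spot. The causes of these shifts were not tested.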

Other observations

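Frames beside the most strongly changed loci also had called differences; these genes were chosen after their values were seen. In the ASP3 array YLR156W (-2.12), YLR159W (-1.71) and YLR161W (-2.02) lie between or next to the copies and were lower, while the next gene, YLR162W, stood at -0.05 (adjusted p = 0.911). The sequences of the lower frames were not compared, so whether their spots share signal was not tested. YLR161W lost its call without the rich array of experiment 3 (adjusted p = 0.0505). Beside NIT1 and YIL165C, YIL163C (-1.22) and SUC2 (-0.97) were lower, and SOA1 on the other side stood at 1.10 (adjusted p = 0.247). YIL163C was not called without either minimal array or the rich array of experiment 3 (adjusted p = 0.0977, 0.0697 and 0.0845).

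Other families, also named after their values were seen, had calls in 1 direction. Of 14 tested mitochondrial carrier genes 5 were lower (CTP1, DIC1, OAC1, ODC2 and ORT1) and 0 higher, with a median difference of -0.87 and of -1.01 on experiment 1. ORT1 lost its call without any 1 of the 4 arrays (adjusted p = 0.0556 to 0.0926) and ODC2 without the minimal array of experiment 2 (0.0544). Of 17 UTP genes of ribosome biogenesis 3 were higher (UTP6, UTP15 and UTP22), with a median of 0.32, and -0.14 on experiment 1. None of the 3 was called without the minimal array of experiment 3 or either rich array (adjusted p = 0.0991 to 0.205). A set of 6 Ty frames, picked by hand, held only called genes, and all 6 were lower, with a median of -0.64. Ty frames outside that set were not counted, so 6 of 6 is not a share of all Ty frames. Ty copies are near-identical, so their spots cannot be told apart. The calls of these frames were lost without the minimal array of experiment 3. The proteinase gene PRB1 was called lower in minimal medium (-1.21, adjusted p = 0.0371) but read 3.01 in minimal medium and -0.14 in rich medium on experiment 1. Its call was lost without any 1 of the 4 arrays (0.0549 to 0.189).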
